A study of Mus musculus with 6 samples.

Results

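The genes described here are the 37 genes of fatty acid activation and beta-oxidation chosen by symbol for their known roles, with earlier results of these data known. All 37 carried values among the 17034 genes with values (74693 features were listed). All 37 passed the filter on low counts. RNA with poly(A) tails came from the gastrocnemius, a mixed and mostly fast muscle of the calf, of male mice aged 8 weeks on standard chow. The TRa_mKO group (3 libraries) carried Thra fl/fl, floxed alleles of the thyroid hormone receptor alpha gene, plus the transgene Myf5-Cre [B6.Cg-Tg(Myf5-cre)1Jme/J]. The WT group (3 libraries) consisted of Thra fl/fl littermates without Cre, so that both groups shared the floxed allele and differed in Cre as well as in its target. Myf5 is active in embryonic muscle precursors, so the labels date the deletion from embryonic muscle formation, and Cre driven by it is known to act also in precursors of brown fat. All libraries were given batch 1. The labels do not say how many litters were used, and p-values measure the spread between these libraries.

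Muscle fibres burn fatty acids as a main fuel at rest and during sustained work. A fatty acid is first activated to an acyl-CoA by an acyl-CoA synthetase, then passed into the mitochondrion as an acylcarnitine by the carnitine shuttle, and there shortened in repeated turns of beta-oxidation. Very long and branched chains are shortened first in peroxisomes. Nuclear receptors of the PPAR family and their partner RXR drive many of these genes in muscle, and thyroid hormone is known to raise fat oxidation in several tissues.

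Library totals lay between 12390527 and 14488500 counts. Skeletal muscle markers were abundant in every library (the alpha-actin gene Acta1 at 25048 to 31270 CPM in WT, against 35828 to 41843 CPM in TRa_mKO, counts scaled to the TMM-adjusted library size). Thra itself stood at 78.8, 92.8 and 96.8 CPM in WT and at 129, 118 and 101 CPM in TRa_mKO, a difference that did not pass (log2 fold change 0.37, SE 0.12, adjusted p = 0.117). A count over the whole gene can miss the loss of a floxed exon, so this value checks neither the deletion nor the labels, and directions below are those of the labelled groups. Over all 13118 genes tested with edgeR's quasi-likelihood test, 547 changed (4.17%), of which 331 rose in TRa_mKO (2.52% of the genes tested) and 216 fell (1.65%), at a Benjamini-Hochberg adjusted p below 0.05, with a median log2 fold change of 0.00.

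Of the 37 genes, 6 rose in TRa_mKO and 0 fell by the same test, against the 2.52% and 1.65% of all genes tested. The 6 were Acss1, Cpt1b, Cpt2, Acads, Hadha and Eci2. At an unadjusted p below 0.05 there were 24 higher (10.2% of all genes) and 0 lower (7.72% of all genes), and DESeq2 and limma-voom also called 0 lower. DESeq2 called 15 of the 37 higher (3.51% of all genes), the same 6 and Acsl3, Acadl, Acadm, Etfdh, Hadhb, Acaa2, Eci1, Decr1 and Mlycd, and limma-voom called the same 6 (2.39% of all genes). Below, a call or its absence is that of edgeR unless another tool is named. The median log2 fold change of the 37 was 0.43, and the fitted value was above 0 for 29 and below 0 for 8. All 3 TRa_mKO libraries lay above all 3 WT libraries for 22 of the 37, as they did for 13.2% of all genes tested, and below them for 1, Acad11, as for 10.1% of all genes. In RNA of a whole muscle, a change in the share of a fibre or cell type cannot be told apart from a change in RNA per cell.

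**Figure D1:**
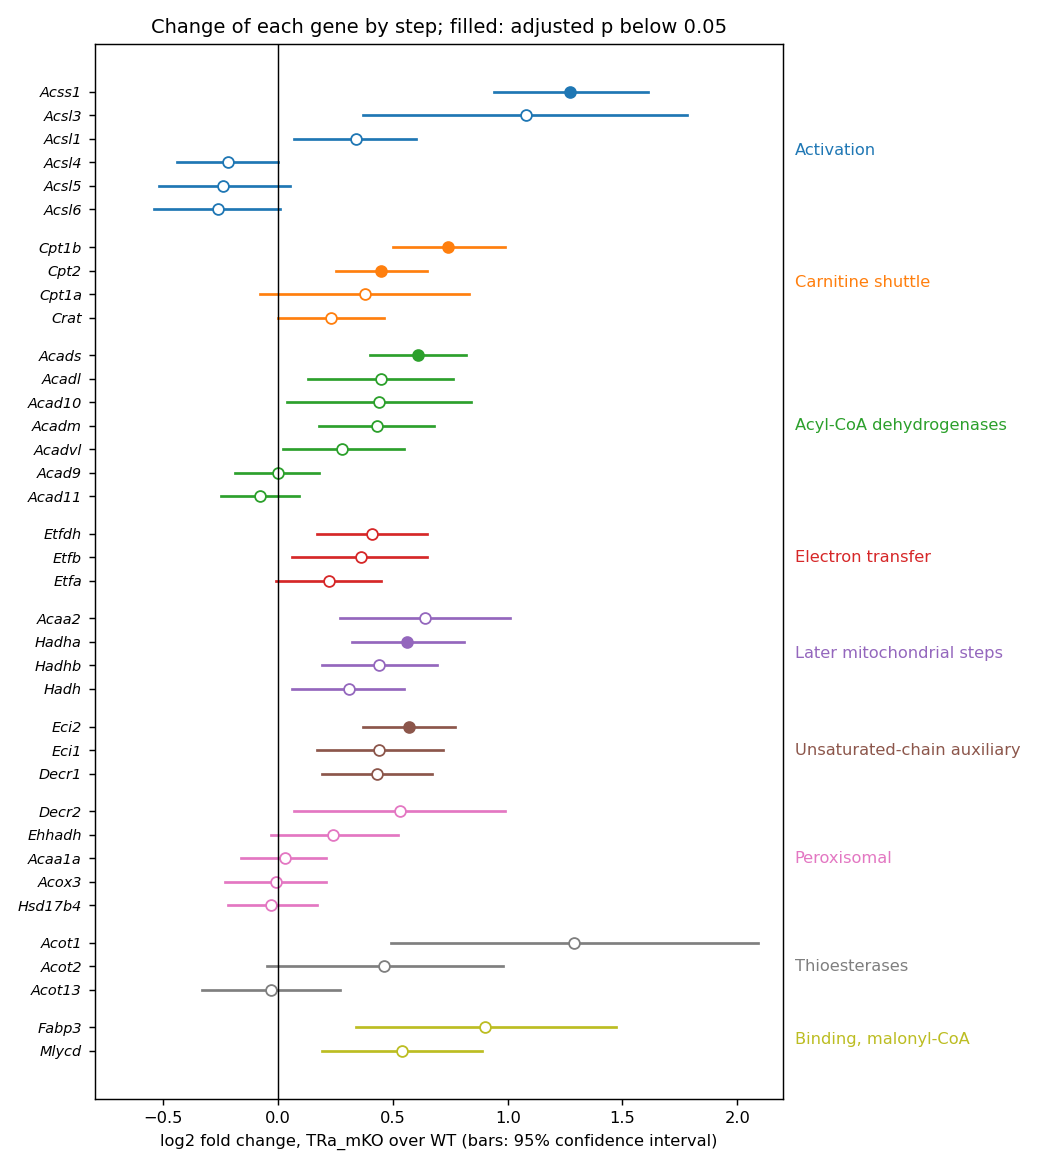
Log2 fold change of TRa_mKO over WT (x axis) for each of the 37 genes (y axis), grouped and coloured by step, with 95% confidence intervals from edgeR; filled points had an adjusted p below 0.05. The 6 filled points lie between 0.45 and 1.27, while 3 of the 5 peroxisomal genes lie between -0.03 and 0.03.

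Activation was the step whose genes differed most among themselves. Its median log2 fold change over 6 genes was 0.06, with a range from -0.26 to 1.27. Acss1, which encodes the mitochondrial synthetase that makes acetyl-CoA from acetate, measured 33.8, 29.3 and 35.6 CPM in WT, against 61.5, 86.9 and 90.4 CPM in TRa_mKO. Its lowest TRa_mKO library exceeded its highest WT library by a wide margin. It rose 2.42-fold (log2 fold change 1.27, SE 0.15, adjusted p = 0.00225), the largest increase among the 6 genes that passed. Of the long-chain acyl-CoA synthetases, Acsl1 is the major form of muscle and fat, and its transcript was also the most abundant of the 5 per length (55.3 RPKM in WT, CPM per kilobase of the longest coding transcript). It stood at 253, 189 and 205 CPM in WT and at 284, 266 and 267 CPM in TRa_mKO. The groups were apart, but WT replicate 1 lay closer to the TRa_mKO libraries than to the other WT libraries, and the difference did not pass (log2 fold change 0.34, SE 0.12, adjusted p = 0.168).

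Acsl3, a synthetase found on the endoplasmic reticulum and on lipid droplets, measured 29.4, 37.6 and 49.4 CPM in WT, against 115, 71.1 and 60.5 CPM in TRa_mKO. All TRa_mKO libraries were higher, with a wide spread in both groups, and the log2 fold change of 1.08 (SE 0.29) did not pass by edgeR (adjusted p = 0.115) but did with DESeq2 (0.0483); some of its counts were not whole. The remaining synthetases had fitted values below 0 and overlapping groups: Acsl4, which prefers arachidonic acid, at -0.22 (95% interval -0.44 to 0.00), Acsl5 at -0.24 (-0.52 to 0.05) and Acsl6 at -0.26 (-0.54 to 0.01). As a share of the summed RPKM of the 5 Acsl genes, Acsl3 took 7.92%, 11.8% and 14.1% in WT and 23.8%, 17.2% and 14.9% in TRa_mKO. Acsl4 took 9.18% to 12.1% in WT and 7.24% to 7.89% in TRa_mKO, again without overlap. The same held for Acsl5 (6.27% to 6.56% and 3.49% to 5.63%) and Acsl6 (7.3% to 9.81% and 5.08% to 6.01%). These shares are parts of the same sum, so a higher share of Acsl3 leaves less for the rest. The share of Acsl1 overlapped between the groups, at 59.2% to 69.0% and 59.5% to 66.7%.

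To show the region in front of Acss1, the gene with the largest change among the 6 that passed, the longest stretch of its upstream window without an annotated exon is printed 5′ to 3′ on the gene's strand (RefSeq, GRCm38.p6, chr2:150668259-150668337, minus strand, 79 bases). Capitals mark a GC box (GGGCGG on either strand), a short element common in promoters that have no TATA box.
Acss1: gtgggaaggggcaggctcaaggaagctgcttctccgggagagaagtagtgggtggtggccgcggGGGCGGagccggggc
A 300-base promoter window was found in the RefSeq table for 30 of the 37 genes. GGGCGG on either strand was present for 22 of these 30 (73.3%) and for 38.2% of the 27025 genes of the table. TATAAA was present for 0 of 30 and for 15.7% of all genes, and CCAAT for 16 of 30 (53.3%) and for 41.1%.

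The carnitine shuttle moves long-chain acyl groups across the inner mitochondrial membrane, and 2 of its 4 genes rose (beside 2.52% of all genes tested). Cpt1b, the muscle form of carnitine palmitoyltransferase 1 and the step that controls entry, stood at 357, 318 and 288 CPM in WT and at 512, 561 and 538 CPM in TRa_mKO. The increase was 1.67-fold (log2 fold change 0.74, SE 0.11, adjusted p = 0.00581), and the groups lay far apart. Cpt1a, the form of liver and other tissues, was a minor transcript here, and per length Cpt1b made up 95.6% to 96.2% of their sum in WT and 95.8% to 97.4% in TRa_mKO. The 3 WT values of Cpt1a (18.4 to 24.6 CPM) overlapped with those of TRa_mKO (22.6, 22.1 and 35.1 CPM), where replicate 3 stood above the rest (log2 fold change 0.38, 95% interval -0.08 to 0.83, adjusted p = 0.37).

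Cpt2, which turns acylcarnitine back into acyl-CoA inside the mitochondrion, measured 68.6, 59.8 and 57.0 CPM in WT. In TRa_mKO it measured 85.4, 83.7 and 84.0 CPM, almost the same in the 3 libraries. This 1.37-fold increase (SE of log2 0.09, adjusted p = 0.0241) was lost when any one of WT replicates 2 and 3 and TRa_mKO replicates 2 and 3 was left out (adjusted p = 0.0548 to 0.0961) and with library sizes alone (0.0557). Crat, carnitine acetyltransferase, which buffers acetyl-CoA against free carnitine, was at 401, 366 and 358 CPM in WT, against 473, 425 and 423 CPM in TRa_mKO and did not pass (log2 fold change 0.23, SE 0.10, adjusted p = 0.273). Slc25a20, the carrier that exchanges acylcarnitine for carnitine and that was not one of the 37, rose from 73.9 ± 11.0 to 112 ± 1.97 CPM (SD, n = 3, edgeR adjusted p = 0.0145). On leaving out WT replicate 2 or 3 or replicate 2 of TRa_mKO it did not pass (adjusted p = 0.0559 to 0.0708).

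**Figure D2:**
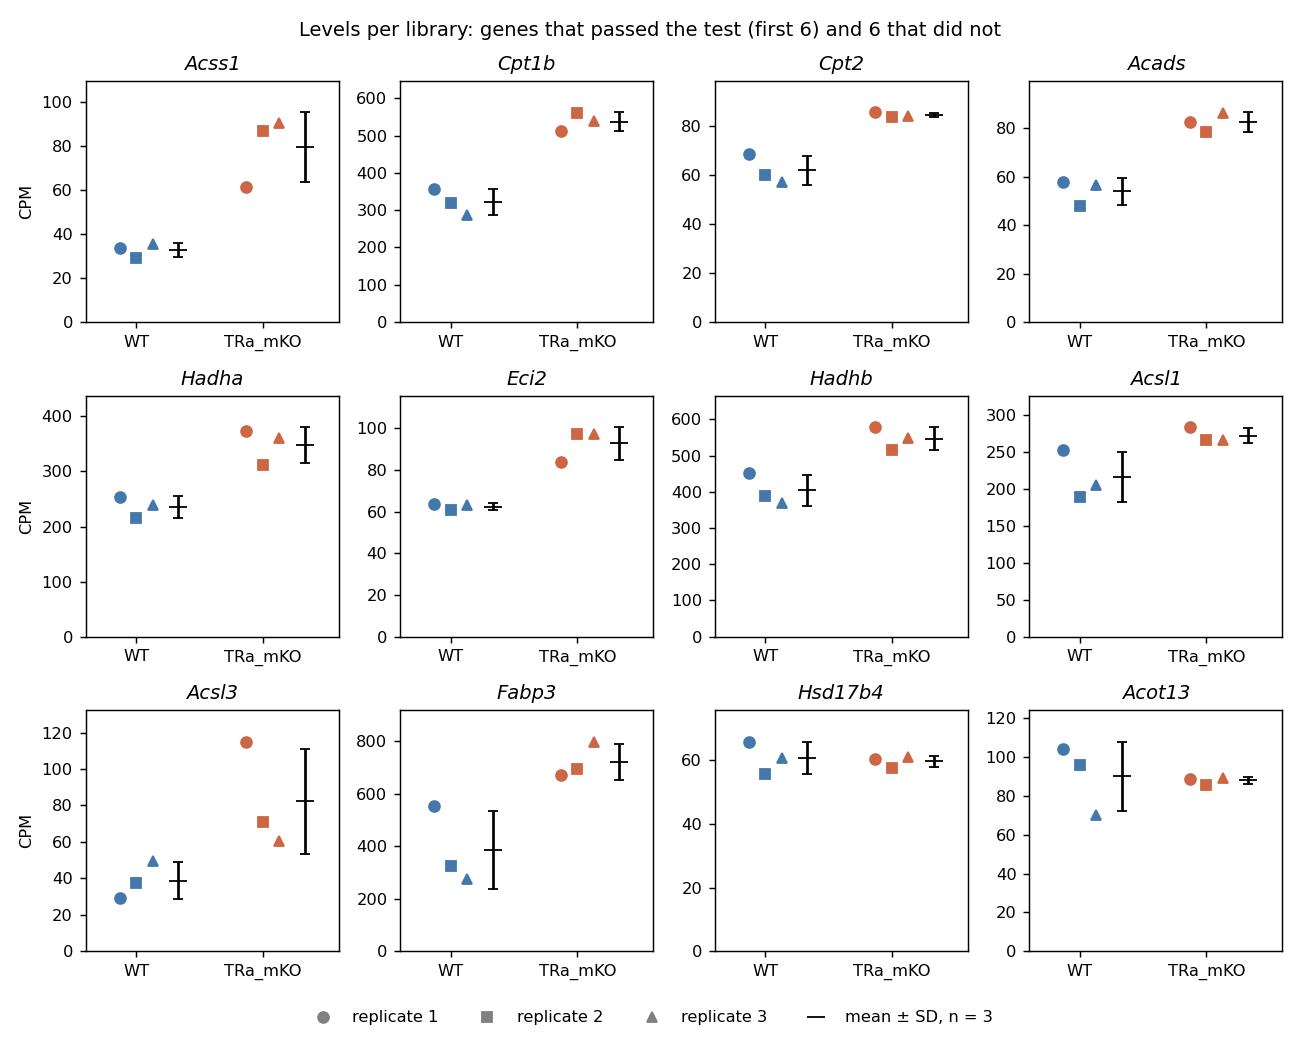
Levels in CPM (y axes, from 0) in each WT (blue) and TRa_mKO (orange) library, with symbols for replicates and black bars for the mean ± SD (n = 3); the 6 genes that passed come first, then Hadhb, Acsl1, Acsl3, Fabp3, Hsd17b4 and Acot13. For Cpt1b the TRa_mKO libraries sit between 512 and 561 CPM, above the WT libraries at 288 to 357 CPM, while the groups overlap for Hsd17b4 and Acot13.

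Acyl-CoA dehydrogenases open each turn of the oxidation cycle, and each prefers a range of chain lengths. Acads, the short-chain enzyme, measured 57.8, 47.8 and 56.6 CPM in WT, against 82.6, 78.4 and 86.4 CPM in TRa_mKO. It rose 1.53-fold (log2 fold change 0.61, SE 0.10, adjusted p = 0.00753). The long-, medium- and very-long-chain enzymes were the more abundant transcripts, at 155, 146 and 154 RPKM in WT against 28.9 RPKM for Acads. Acadl, for long chains, stood at 366, 274 and 251 CPM in WT, against 409, 391 and 415 CPM in TRa_mKO. Acadm, for medium chains, stood at 339, 273 and 283 CPM in WT, against 419, 401 and 386 CPM in TRa_mKO. Both had groups apart and did not pass by edgeR (log2 fold change 0.45 and 0.43, SE 0.14 and 0.11, adjusted p = 0.118 and 0.0625). Both passed with DESeq2 (adjusted p = 0.0321 and 0.00531) and by edgeR without WT replicate 1 (0.0222 and 0.0398).

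Acadvl, the very-long-chain enzyme of the inner membrane, showed a smaller difference (382, 326 and 292 CPM against 391, 391 and 435 CPM, log2 fold change 0.28, adjusted p = 0.244). The other members of the family did not pass either. Acad9, which serves the assembly of respiratory complex I as well as oxidation, was nearly level (53.5 ± 1.54 and 53.5 ± 3.75 CPM, log2 fold change 0.00, 95% interval -0.19 to 0.18). Acad11 measured 63.0, 61.7 and 61.1 CPM in WT, against 59.3, 58.7 and 57.7 CPM in TRa_mKO, so that its groups were apart downward by a small margin (log2 fold change -0.08, SE 0.07, adjusted p = 0.631). Acad10 was rare, at 6.93 to 9.96 CPM in WT, against 9.08 to 13.2 CPM in TRa_mKO. Over the 7 dehydrogenases, 1 rose and 0 fell (beside 2.52% and 1.65% of all genes tested), with 0.43 as the median log2 fold change.

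The region in front of Acadm is shown because it held the letters AGGTCA, the half-site that nuclear receptors such as PPAR, RXR and the thyroid hormone receptors can bind (RefSeq, GRCm38.p6, chr3:153944644-153944893, minus strand, 250 bases, no annotated exon). Capitals mark the half-site, here as its reverse complement.
Acadm: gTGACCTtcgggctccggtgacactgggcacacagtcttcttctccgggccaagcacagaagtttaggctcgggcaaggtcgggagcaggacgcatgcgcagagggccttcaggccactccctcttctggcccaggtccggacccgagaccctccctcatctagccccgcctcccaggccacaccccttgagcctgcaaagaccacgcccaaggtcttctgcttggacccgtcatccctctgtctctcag
AGGTCA on either strand was present for 4 of the 30 genes with a window (13.3%: Acadm, Acadvl, Acsl6 and Cpt1a), for 0 of the 5 genes that rose and had a window, and for 18.1% of all genes of the table. Cpt1b, which also rose, had no window and was not searched. The direct repeat of AGGTCA spaced by 1 base that PPAR and RXR prefer, and the direct repeat of AGGTCA spaced by 4 bases that thyroid hormone receptors prefer, were present for 0 of 30 genes, and for 0.0481% and 0.0148% of all genes. Matches to the longer motifs include the half-site, and a match or its absence describes these letters in this window alone.

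Electrons from the dehydrogenases pass to the electron transfer flavoprotein, made of Etfa and Etfb, and from it through Etfdh to ubiquinone. By edgeR and limma-voom 0 of these 3 genes passed (2 higher at an unadjusted p below 0.05 by edgeR, beside 10.2% of all genes). All 3 had groups apart upward (13.2% of all genes), and DESeq2 called Etfdh (adjusted p = 0.0167). Etfdh stood at 138, 108 and 117 CPM in WT and at 167, 152 and 164 CPM in TRa_mKO (log2 fold change 0.41, SE 0.11, adjusted p = 0.0671). Etfb, the most abundant of the 3 per length (243 RPKM in WT), stood at 256, 214 and 181 CPM in WT and at 258, 282 and 293 CPM in TRa_mKO (log2 fold change 0.36, SE 0.13, adjusted p = 0.181). For Etfb, WT replicate 1 and TRa_mKO replicate 1 nearly met. Etfa measured 277, 233 and 234 CPM in WT, against 288 to 290 CPM in TRa_mKO (log2 fold change 0.22, adjusted p = 0.298).

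The later steps of the cycle (hydration, the second oxidation and thiolysis) are carried for long chains by the trifunctional protein, whose alpha and beta subunits are Hadha and Hadhb. Hadha measured 254, 215 and 239 CPM in WT, against 373, 312 and 361 CPM in TRa_mKO. It rose 1.48-fold (log2 fold change 0.56, SE 0.11, adjusted p = 0.0219). Its call was lost on leaving out WT replicate 2 or 3 or replicate 3 of TRa_mKO (adjusted p = 0.0861, 0.0561 and 0.0601). Hadhb measured 452, 389 and 369 CPM in WT, against 578, 515 and 548 CPM in TRa_mKO. It had the same order of libraries within TRa_mKO and did not pass by edgeR (log2 fold change 0.44, SE 0.11, adjusted p = 0.0613), but passed with DESeq2 (0.00347). Hadha counts were 0.552 to 0.646 of Hadhb counts in WT and 0.606 to 0.658 in TRa_mKO, so the ratio of the subunits overlapped between the groups.

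The genes of the 2 subunits lie head to head, with RefSeq starts 273 bases apart on chromosome 5, and their promoter windows overlap by 228 bases. The stretch between them without an annotated exon is printed because it lies between the starts of both (GRCm38.p6, chr5:30155163-30155247, 85 bases, 5′ to 3′ on the strand of Hadhb). Capitals mark GC boxes (GGGCGG), of which it holds 2.
Hadha-Hadhb: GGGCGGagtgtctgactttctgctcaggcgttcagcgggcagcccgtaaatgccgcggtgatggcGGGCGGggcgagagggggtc

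Acaa2, the mitochondrial 3-ketoacyl-CoA thiolase, had the largest fitted change of this step but a wide spread in WT (204, 151 and 126 CPM against 236, 238 and 274 CPM, log2 fold change 0.64, SE 0.16, edgeR adjusted p = 0.0645). It passed with DESeq2 (0.00325) and by edgeR without WT replicate 1 (0.011). Hadh, which oxidizes shorter hydroxyacyl chains, stood at 162 ± 18.8 CPM in WT and 201 ± 13.5 CPM in TRa_mKO (SD, n = 3, edgeR adjusted p = 0.167). Echs1, the short-chain hydratase, was not one of the 37 and rose 1.48-fold, from 97.6, 96.5 and 103 CPM to 142, 152 and 146 CPM (adjusted p = 0.00551, and 0.0513 without WT replicate 1 and TRa_mKO replicate 3).

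Unsaturated fatty acids need auxiliary enzymes that move or reduce double bonds. Eci2, an enoyl-CoA isomerase, measured 63.4, 60.5 and 63.1 CPM in WT, against 83.8, 97.2 and 97.3 CPM in TRa_mKO. It had a narrow WT group and rose 1.49-fold (log2 fold change 0.57, SE 0.09, adjusted p = 0.00734). Eci1, the isomerase with the highest level per length in this step (93.8 RPKM in WT), stood at 125, 106 and 89.2 CPM in WT, against 137, 144 and 154 CPM in TRa_mKO. Decr1, the mitochondrial dienoyl-CoA reductase, stood at 140, 116 and 112 CPM in WT, against 171, 155 and 170 CPM in TRa_mKO. Neither passed by edgeR, with groups apart upward in both (log2 fold change 0.44 and 0.43, SE 0.12 and 0.11, adjusted p = 0.0826 and 0.0559). Both passed with DESeq2 (adjusted p = 0.0257 and 0.00961) and by edgeR without WT replicate 1 (0.0385 and 0.0315).

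Over the 21 genes of the carnitine shuttle and the mitochondrial steps, 5 rose and 0 fell (beside 2.52% and 1.65% of all genes tested). Groups were apart upward for 17 (13.2% of all genes), and the median log2 fold change was 0.43. The medians by step were 0.41 for the shuttle, 0.43 for the dehydrogenases, 0.36 for electron transfer, 0.50 for the later steps and 0.44 for the auxiliary enzymes, each beside 0.00 for all genes tested.

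**Figure D3:**
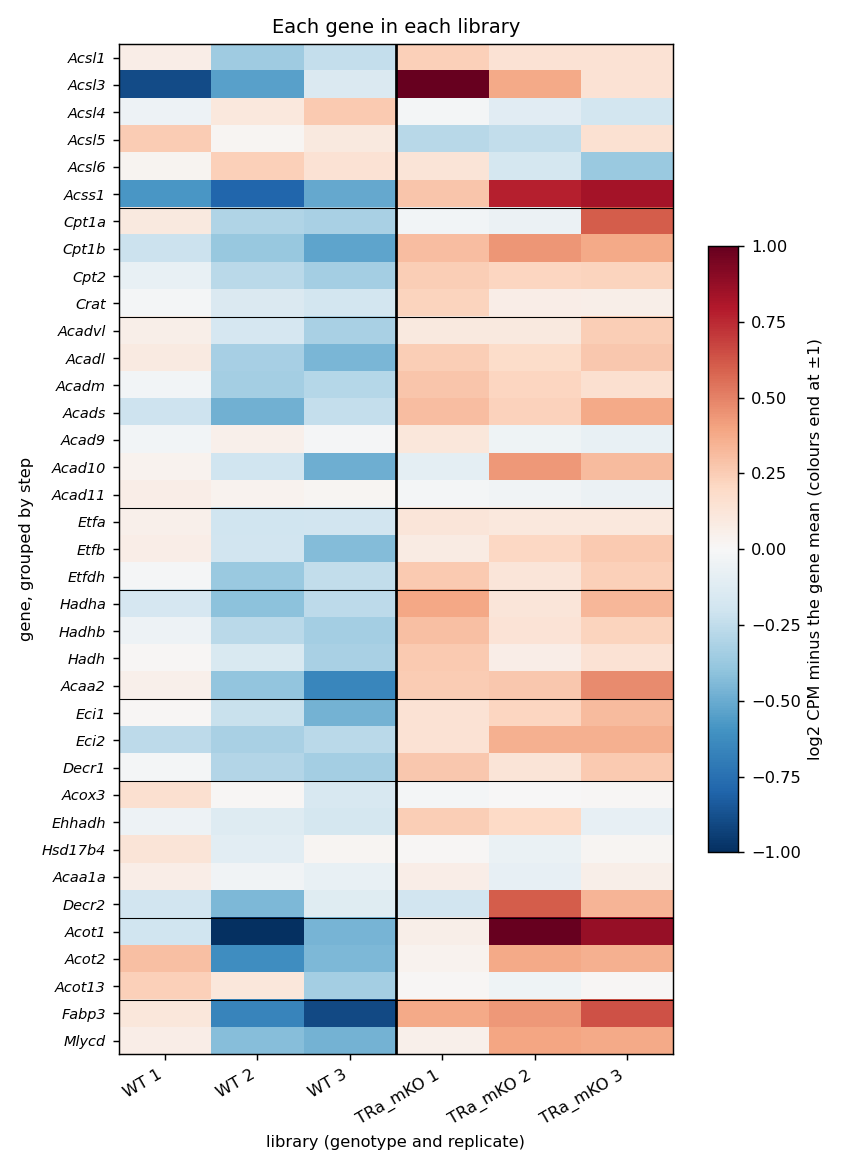
Log2 CPM of each gene (rows, grouped by step with thin lines) in each library (columns, WT left and TRa_mKO right of the thick line), as the difference from the gene's mean over the 6 libraries. The median over the 37 genes is 0.02 in WT replicate 1, -0.27 and -0.29 in WT replicates 2 and 3, and 0.14, 0.14 and 0.24 in TRa_mKO.

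The peroxisomal genes gave 0 calls of 5 by edgeR, DESeq2 and limma-voom (1 at an unadjusted p below 0.05 by edgeR), a median log2 fold change of 0.03 and overlapping groups for all 5. Hsd17b4, the bifunctional hydratase and dehydrogenase of straight and branched chains, measured 65.9, 55.8 and 60.9 CPM in WT, against 60.6, 57.6 and 61.0 CPM in TRa_mKO (log2 fold change -0.03, 95% interval -0.22 to 0.17). Acaa1a, the peroxisomal thiolase and the most abundant of the 5 per length (28.5 RPKM in WT), measured 53.0, 49.3 and 48.2 CPM in WT, against 52.9, 47.9 and 52.8 CPM in TRa_mKO (0.03, interval -0.16 to 0.21). Acox3, an oxidase of branched chains, was at -0.01 (interval -0.23 to 0.21). These intervals end below the fitted values of Acads and Hadha, but the difference between the steps was not tested. Ehhadh, the other bifunctional enzyme, was rarer (11.6 ± 0.524 and 13.7 ± 1.63 CPM, SD, n = 3, log2 fold change 0.24, edgeR adjusted p = 0.343). Decr2, the peroxisomal dienoyl-CoA reductase, was the rarest, at 6.21, 5.19 and 6.54 CPM in WT, against 6.22, 10.8 and 9.0 CPM in TRa_mKO. Its TRa_mKO replicate 1 lay within the WT values, and its log2 fold change of 0.53 (SE 0.21) did not pass (adjusted p = 0.202).

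Acyl-CoA thioesterases release free fatty acids from CoA. Acot1, the cytosolic form, was scarce, at 1.35, 0.62 and 1.12 CPM in WT, against 1.61, 3.23 and 2.84 CPM in TRa_mKO, with groups apart (log2 fold change 1.29, SE 0.36, adjusted p = 0.0804). Acot2, its mitochondrial neighbour, was at 9.26 ± 3.35 and 12.8 ± 1.6 CPM (SD, n = 3, edgeR adjusted p = 0.333). The 2 genes are near copies: 16.5% of the 100-base windows of the longest Acot1 transcript occur unchanged in an Acot2 transcript. Both had counts that were not whole, and their values are uncertain. Acot13, a small thioesterase associated with mitochondria and by far the most abundant of the 3 per length (125 RPKM in WT), measured 104, 95.8 and 70.0 CPM in WT, against 89.0, 85.9 and 89.3 CPM in TRa_mKO (log2 fold change -0.03, 95% interval -0.33 to 0.27).

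Fabp3, the fatty acid binding protein of heart and oxidative muscle, was the most abundant transcript of the 37 per length (468 RPKM in WT). It stood at 555, 325 and 275 CPM in WT and at 670, 694 and 798 CPM in TRa_mKO. WT replicate 1 lay nearer to TRa_mKO than to the other WT libraries, and the log2 fold change of 0.90 (SE 0.24) did not pass (adjusted p = 0.0904), though it passed without WT replicate 1 (1.25, adjusted p = 0.00223). Mlycd, malonyl-CoA decarboxylase, removes the inhibitor of carnitine palmitoyltransferase 1. It stood at 96.6, 68.6 and 66.5 CPM in WT, against 95.3, 121 and 120 CPM in TRa_mKO, so that replicate 1 of each genotype met (log2 fold change 0.54, SE 0.16, edgeR adjusted p = 0.0997). It passed with DESeq2 (0.0206) and by edgeR without WT replicate 1 (0.0196). Acaca and Acacb, whose products make that inhibitor, did not pass, though the groups of Acacb were apart upward (log2 fold change 0.00 and 0.20, 95% interval of Acacb -0.01 to 0.40).

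**Figure D4:**
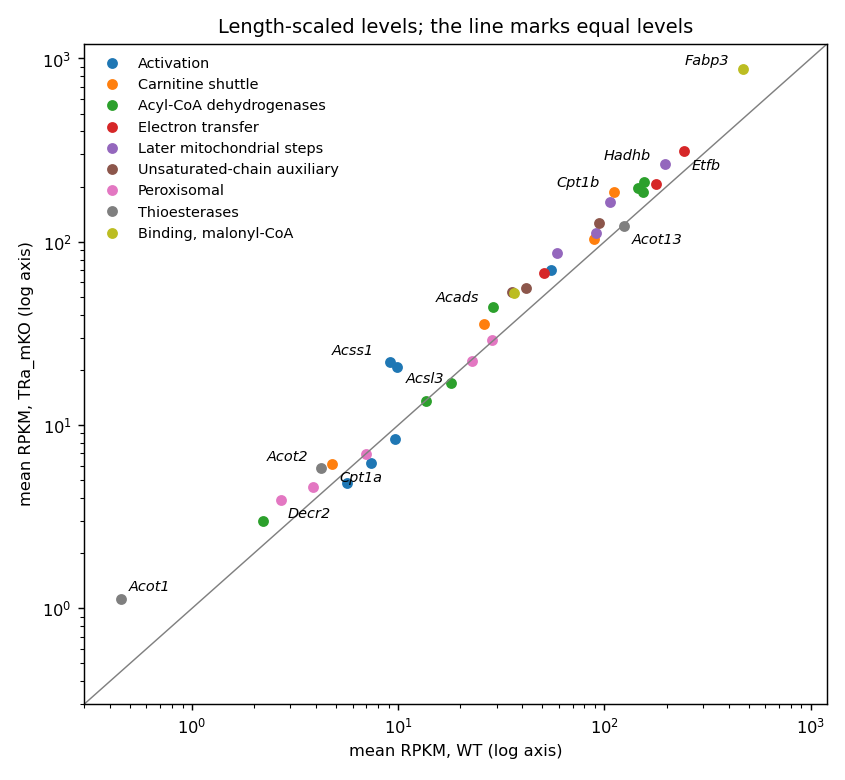
Mean RPKM of each of the 37 genes in WT (x axis, log scale) and TRa_mKO (y axis, log scale), coloured by step; the line marks equal levels and 12 genes are named. Fabp3 is highest and Acot1 lowest (468 and 0.453 RPKM in WT), and most mitochondrial genes lie above the line while Acot13 lies on it.

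The list of other genes around fatty acid oxidation also held genes with other roles, such as Acaca and Acacb. From this list, 39 genes were tested. Of these, 5 rose and 1 fell (beside 2.52% and 1.65% of all genes), with a median log2 fold change of 0.05. Besides Echs1 and Slc25a20, Slc25a42, a mitochondrial carrier of CoA, rose from 30.0 ± 1.48 to 41.5 ± 1.75 CPM (SD, n = 3, edgeR adjusted p = 0.0127). Hsd17b10, a mitochondrial hydroxyacyl-CoA dehydrogenase that also serves tRNA processing, rose from 54.5 ± 2.68 to 74.1 ± 5.34 CPM (SD, n = 3, edgeR adjusted p = 0.0219). Acadsb, the short/branched-chain dehydrogenase of isoleucine breakdown, was the fifth (1.33-fold, adjusted p = 0.0422). Abcd2, a peroxisomal transporter of very-long-chain acyl-CoA, fell from 77.5, 80.9 and 82.4 CPM to 63.5, 46.7 and 42.6 CPM (log2 fold change -0.66, SE 0.14, adjusted p = 0.0268). The last 2 were named after their values were seen. With 1 library left out, Abcd2 passed only without TRa_mKO replicate 1 (adjusted p = 0.0543 to 0.12 without the others), and Acadsb only without WT replicate 3 (0.0633 to 0.187). Hsd17b10 passed only without TRa_mKO replicate 1 (0.0582 to 0.112), and Slc25a42 did not pass without WT replicate 2 or TRa_mKO replicate 2 (0.0539 and 0.0768). With library sizes alone, Slc25a42, Hsd17b10 and Acadsb did not pass (0.0612, 0.0594 and 0.12). Acaca, Acacb and Ppargc1a were likewise chosen after their values were seen.

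Among 22 transcriptional regulators of these pathways, 2 rose and 2 fell (beside 2.52% and 1.65% of all genes tested), with a median log2 fold change of 0.01. At an unadjusted p below 0.05 by edgeR, 7 were higher and 5 lower (beside 10.2% and 7.72% of all genes). Limma-voom called the same 4. DESeq2 called 6, adding Klf15 as higher and Nr4a3 as lower (log2 fold change 0.64 and -1.26, adjusted p = 0.0229 and 0.0184). Ppara, the PPAR that senses fatty acids in oxidative tissues, rose from 11.1, 11.0 and 10.3 CPM to 19.2, 24.0 and 23.0 CPM (2.04-fold, adjusted p = 0.0013). Esrrb, an orphan receptor that is related to the estrogen receptors, rose 1.73-fold from 4.32 ± 0.232 CPM (SD, n = 3, edgeR adjusted p = 0.0189), and its call ended without any one of WT replicates 2 and 3 and TRa_mKO replicates 2 and 3 (0.0568 to 0.0759). Lpin1, a phosphatidate phosphatase that also acts as a coactivator with PPAR alpha, fell from 336, 281 and 282 CPM to 186, 160 and 114 CPM (1.95-fold higher in WT, adjusted p = 0.0141, and 0.058 without TRa_mKO replicate 2). Thrb, the gene of the other thyroid hormone receptor, was 1.91-fold higher in WT (adjusted p = 0.00125). Ppargc1a, a coactivator of mitochondrial genes, was at 43.6 ± 6.94 and 42.5 ± 7.45 CPM (SD, n = 3, edgeR adjusted p = 0.93). Of 17 other genes known as PPAR targets, 2 rose and 0 fell by edgeR (beside 2.52% and 1.65% of all genes tested). At an unadjusted p below 0.05 by edgeR, 6 were higher and 2 lower (beside 10.2% and 7.72% of all genes). DESeq2 called 4 higher (3.51% of all genes), among them Plin5 and Lpl (log2 fold change 0.92 and 0.58, adjusted p = 0.00168 and 0.0356). Limma-voom called 1 higher (2.39% of all genes), and both tools called 0 lower. Slc27a1, a fatty acid transporter of the plasma membrane, rose 2.09-fold (adjusted p = 0.0246), and Angptl4, a secreted inhibitor of lipoprotein lipase, rose 3.73-fold from 2.24 to 3.74 CPM in WT to 5.93 to 16.2 CPM in TRa_mKO (adjusted p = 0.0382). The call of Slc27a1 ended without WT replicate 3 or TRa_mKO replicates 2 or 3 (0.0787 to 0.0916), and that of Angptl4 without any one WT library or TRa_mKO replicate 2 (0.0722 to 0.129). With library sizes alone neither passed (0.0644 and 0.0541), and Angptl4 did not pass with limma-voom (0.0939) or with no filter (0.067).

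The libraries also differed in markers of fibre type and blood. The 11 markers of slow fibres, which are rich in oxidative enzymes, summed to 2996, 1365 and 1394 CPM in WT and to 5288, 5577 and 7667 CPM in TRa_mKO, and 5 of the 11 rose (Casq2, Myoz2, Atp2a2, Myl3 and Myl2, beside 2.52% of all genes tested). Of these 5, Casq2 alone passed without TRa_mKO replicate 2 (adjusted p = 0.0619 to 0.101 for the others), and Atp2a2, Myl3 and Myl2 did not pass with library sizes alone (0.0551 to 0.0721), with no filter (0.0514 to 0.0937) or without replicate 1 or 3 of TRa_mKO (0.0556 to 0.11). Without WT replicate 2, Myoz2, Myl3 and Myl2 did not pass (0.0578 to 0.0997), and without WT replicate 3 Atp2a2 and Myl2 did not (0.0965 and 0.083). All 11 slow-fibre markers were higher at an unadjusted p below 0.05 by edgeR (10.2% of all genes). Groups were apart upward for 10 of them (13.2% of all genes). Their log2 fold changes lay between 0.79 and 2.13, around a median of 1.57. DESeq2 called 10 of the 11 higher, all but Tnnc1 (3.51% of all genes). The calls of limma-voom were the same 5 as those of edgeR (2.39% of all genes). The summed level of the 37 genes was 5581, 4586 and 4385 CPM in WT, against 6626, 6445 and 6771 CPM in TRa_mKO. WT replicate 1 was the highest WT library in both sums, and it held the highest WT value for 31 of the 37 genes. Without it, 15 of the 37 genes rose, against 1.80% of all genes tested in that fit, and the 6 were among them. Red blood cell transcripts summed to 1763, 590 and 458 CPM in WT, against 710, 917 and 1621 CPM in TRa_mKO. Without the library highest in them of each genotype (WT replicate 1 and TRa_mKO replicate 3), 7 of the 37 rose (1.35% of all genes tested in that fit), among them 4 of the 6; Eci2 and Hadha did not (adjusted p = 0.0587 and 0.0795). The part of slow fibres in these results was not tested.

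The 7 skeletal muscle markers summed to 59811, 68102 and 56578 CPM in WT, against 85304, 75852 and 76543 CPM in TRa_mKO, so that the groups were apart in the same direction as for the 37 genes. All 7 had fitted values above 0 (median log2 fold change 0.29) and 0 passed by edgeR (3 at an unadjusted p below 0.05) or limma-voom, while DESeq2 called Acta1 and Ttn (adjusted p = 0.00375 and 0.0465). The 5 endothelial markers summed to 980, 910 and 807 CPM in WT and to 587, 660 and 817 CPM in TRa_mKO, with a median log2 fold change of -0.34. Pecam1 had groups apart downward. By edgeR 0 of the 5 passed (3 lower at an unadjusted p below 0.05, beside 7.72% of all genes), and by limma-voom 0. DESeq2 called 1 of them, Kdr (log2 fold change -0.63, adjusted p = 0.00618). The 5 Schwann cell markers summed to 1230, 299 and 1193 CPM in WT and to 471, 559 and 650 CPM in TRa_mKO, where WT replicate 2 stood below all other libraries. All 5 had fitted values below 0 (median -0.60), and 0 passed by edgeR (1 at an unadjusted p below 0.05), DESeq2 or limma-voom. The part of these cells in the results was not tested.

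The 11 fast-fibre markers summed to 93038 to 125885 CPM in WT, against 108884 to 123935 CPM in TRa_mKO. By edgeR 1 of the 11 rose and 0 fell (beside 2.52% and 1.65% of all genes tested). Myh2 rose from 1447 ± 330 to 2399 ± 13.6 CPM (SD, n = 3, edgeR adjusted p = 0.0352), and limma-voom called it too (0.0332). DESeq2 called Myh2 and Mylpf (adjusted p = 6.81e-05 and 0.0465). The edgeR call of Myh2 ended without WT replicate 2 or 3 or any one TRa_mKO library (0.0615 to 0.137), and with the replicate number as a block (0.0622). The 8 white adipocyte markers summed to 600 to 834 CPM in WT, against 496 to 682 CPM in TRa_mKO. Most of each sum was Fabp4 (555 to 796 CPM in WT, 465 to 656 CPM in TRa_mKO), a gene also in the list of PPAR targets. The sum therefore mainly followed Fabp4. Of 7 markers tested, 0 were called by edgeR (0 at an unadjusted p below 0.05), DESeq2 or limma-voom, and Adipoq lay between 3.18 and 9.6 CPM in all libraries. Ucp1, the defining gene of brown fat, lay between 0 and 1.53 CPM. The nuclear-encoded subunits of the respiratory chain, a list of 86 genes added after the files were seen, summed to 35212, 33168 and 26277 CPM in WT and to 31555, 29972 and 32288 CPM in TRa_mKO. Of these, 83 were tested and edgeR and limma-voom called 0 (2 at an unadjusted p below 0.05 by edgeR) and DESeq2 called 1, Cox6a2 (log2 fold change 0.45, adjusted p = 0.0224), with a median log2 fold change of -0.04.

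**Figure D5:**
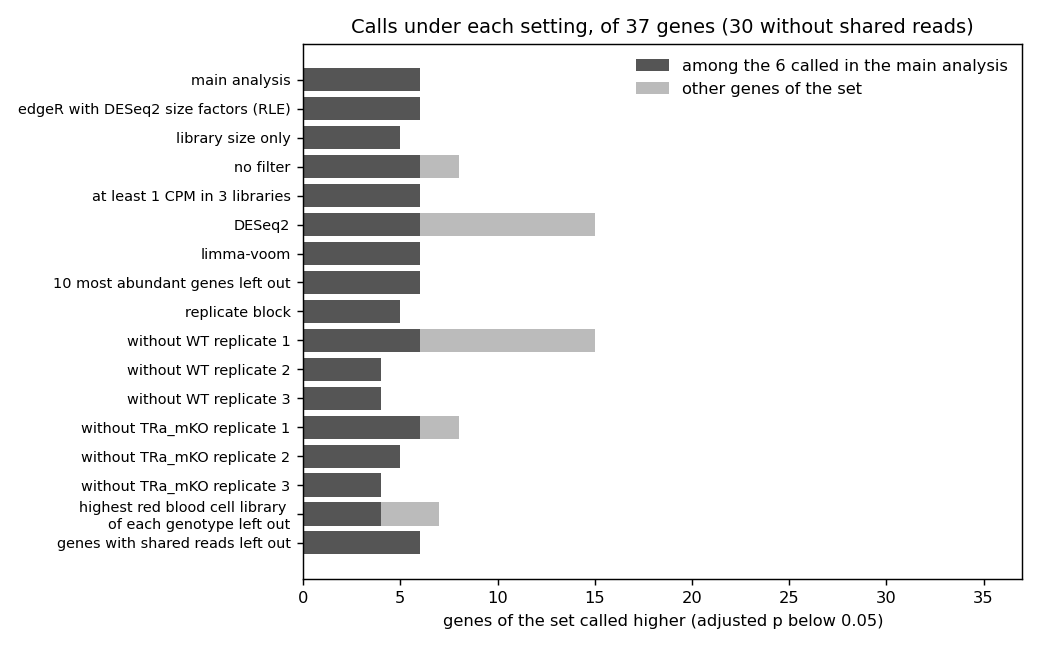
Number of the 37 genes called higher in TRa_mKO (x axis) under each setting (y axis); dark bars count the 6 genes called in the main analysis and light bars count others (shared reads: counts that were not whole). Acss1, Cpt1b and Acads were called under every setting shown, and the total ranged from 4 to 15.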

How the data were processed

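RNA-seq counts of 6 gastrocnemius libraries were analysed, 3 per genotype. The authors deposited 1 table of estimated counts for each gene, without normalization (the columns are named read count per the file headers); 9.65% to 10.0% of a library's values were not whole, and 7 of the 37 genes (Acsl3, Acad9, Acad10, Acaa1a, Acot1, Acot2 and Fabp3) had such values. FastQC 0.11.9, Trimmomatic 0.39 and featureCounts appear in the submitters' processing notes, as do 3 build names (GRCm39, GRCm38.p6, mm10), none with a role. Strand setting, annotation and aligner: not given in the sources used here. Where genes overlap, reads may therefore be mixed: 7 of the 37 overlap a gene that has values (RefSeq table, GRCm38.p6), none of them among the 6 called. The libraries were stranded by dUTP, per the labels' protocols.

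Values were rounded, filtered by filterByExpr (minimum count 10), scaled by TMM and tested two-sided with edgeR 4.0.16 (robust quasi-likelihood, genotype alone) in R 4.3.3, with Benjamini-Hochberg adjustment over 13118 genes. The step was tested on simulated data. RPKM used the longest coding GENCODE vM21 transcript (37 of 37 genes). Alternatives were other scalings, filters and thresholds, DESeq2 1.42.0, limma 3.58.1 (voom), a replicate block, each library left out, the libraries richest in red blood cell transcripts left out, and genes with values that were not whole left out.

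The 37 genes, the steps, the other lists and the alternatives were chosen with earlier results of these data known. Values in every library are given for genes that passed and for the most abundant and most changed gene of each step; from other lists, up to 4 genes that passed with the smallest p. Promoters are those of RefSeq (GRCm38.p6), with exons of GENCODE vM21 left out. Every value column was matched to a sample.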

Additional observations from a re-analysis of the deposited data

How the results depend on the processing

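Between 4 and 15 of the 37 genes rose when 1 library was left out, while 135 to 331 of all genes tested rose in those fits. There were 15 with DESeq2 (3.51% of all genes tested rose in that fit) and 15 at an adjusted p below 0.1 (575 of all 13118 genes rose). Of the 37, 0 fell under any setting. Limma-voom called 6 (2.39% of all genes). Over all genes, 547 changed; the count was 934 and 173 at adjusted p below 0.1 and 0.01, 209 to 595 with 1 library left out, and 267 without the libraries richest in red blood cell transcripts. With library sizes alone, 45.5% of calls were upward in place of 60.5%, and the median of all genes was -0.05. With the replicate number as a block, 357 genes changed and 5 of the 37 rose, Cpt2 being lost (adjusted p = 0.0616). Also lost were Angptl4 (0.092), Slc27a1 (0.0693), Esrrb (0.0531), Hsd17b10 (0.0692), Acadsb (0.126), Myoz2 (0.0545), Myl3 (0.0622) and Myl2 (0.0712). Same-numbered libraries correlated at -0.176, 0 and -0.006 in their deviations, and no library correlated best with its own number. With deviations taken from the mean of only 3 libraries per genotype, these values cannot decide whether the numbers pair the libraries. Acss1, Cpt1b and Acads passed under every alternative at the 0.05 threshold, Eci2 under every one but the blood-rich libraries left out. Without the blood-rich libraries, Esrrb, Slc25a42, Hsd17b10, Acadsb and Abcd2 did not pass either (0.0865 to 0.153).

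The median of the dehydrogenases was 0.38 with library sizes alone, 0.31 to 0.52 with 1 library left out and 0.53 without the blood-rich libraries. Without genes whose counts were not whole, the median was -0.22 for activation (Acsl3 is removed) and -0.04 for thioesterases (Acot13 alone remains). Signs changed for genes near 0 that passed in no fit: Acaa1a with library sizes alone (-0.02), and, with 1 library left out, Acad9 (-0.06 to 0.03), Acox3 (-0.09 to 0.06), Hsd17b4 (-0.08 to 0.02) and Acot13 (-0.19 to 0.08). Without the blood-rich libraries they were 0.02, 0.07, 0.02 and 0.08 in that order. The cause was not tested. Depth limits Acot1, with single-figure CPM in every library.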
